A study of Mus musculus with 6 samples.

Results

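Mouse granulocyte-monocyte progenitors carrying ER-HOXA9 were compared after 3 days of culture with vehicle and at day 0, the start of the experiment. The comparison used 4 of the 6 libraries of the series, 2 per group, and all 23337 genes of the deposited count table. Both groups were C57BL6 bone marrow cells grown in RPMI medium with heat-inactivated serum, glutamine, stem cell factor and 0.5 µM beta-estradiol. The day 0 cells received no agent, and the vehicle cells received DMSO for 3 days. The remaining 2 libraries came from cells given 200 nM GSK-LSD1, 5 µM mercaptopurine and 5 µM cerulenin for 3 days. They entered the fit to estimate the spread, and their levels are given beside some results. Time in culture and solvent changed together, so the effects of the 3 days and of DMSO cannot be told apart. The submitters describe the replicates as biological. The labels do not say whether they were separate animals, clones or cultures, so p-values measure the spread between these libraries.

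ER-HOXA9 joins the hormone-binding part of the estrogen receptor to HOXA9, a homeobox factor that holds myeloid progenitors in a self-renewing state, so that the block to maturation depends on estradiol in the medium. Dividing cells make most of their histone mRNA in S phase from replication-dependent genes, whose transcripts end in a stem-loop and mostly lack a poly(A) tail. Cells answer growth factor pulses and handling with immediate early genes such as Egr1, and answer a shortage of amino acids or stress of the endoplasmic reticulum through the transcription factor ATF4.

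Poly(A)-enriched libraries held between 11305666 and 16948697 counts. Rn45s, the ribosomal RNA precursor, took 20.45% and 24.64% of the counts at day 0 and 16.12% and 14.62% at vehicle day 3, and did not pass the test (adjusted p = 0.054). The 12 markers of granulocyte-monocyte progenitors were all tested, and their summed level was 7722 and 8026 normalised counts (CPM, scaled by library size and TMM) at day 0 and 8657 and 8918 CPM at vehicle day 3, so the labelled cell type's markers were present. Camp and Retnlg of mature neutrophils, C1qa of macrophages, and Cd3e of T cells had 0 counts in these 4 libraries, which allows at most 3 counts a library (0.179 to 0.251 CPM). Other markers were present. At day 0 those of monocytes and macrophages summed to 1178 and 1236 CPM, mostly Ccr2. Mast cell and basophil markers summed to 1166 and 981 CPM, mostly Cpa3. The sums were 649 and 771 CPM for erythroid, 262 and 226 for eosinophil, 249.5 and 256 for stroma and 64.7 and 59.8 for mature neutrophil markers. These sums rested on few genes. Of the markers found, 2 of 12 erythroid, 4 of 9 eosinophil, 3 of 12 stroma and 6 of 11 neutrophil ones had enough counts to be tested. Over 8404 genes, the median absolute log2 difference between replicates was 0.112 at day 0, 0.103 at vehicle day 3 and 0.0615 with drug. The drug libraries thus lowered the spread that the fit shares between groups. Replicates differed with gene length. The median log2 difference between day 0 replicates 1 and 2 ran from 0.19 in the shortest of 5 equal length bins to -0.11 in the longest, and that between vehicle replicates 1 and 2 ran from -0.16 to 0.11.

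**Figure D1:**
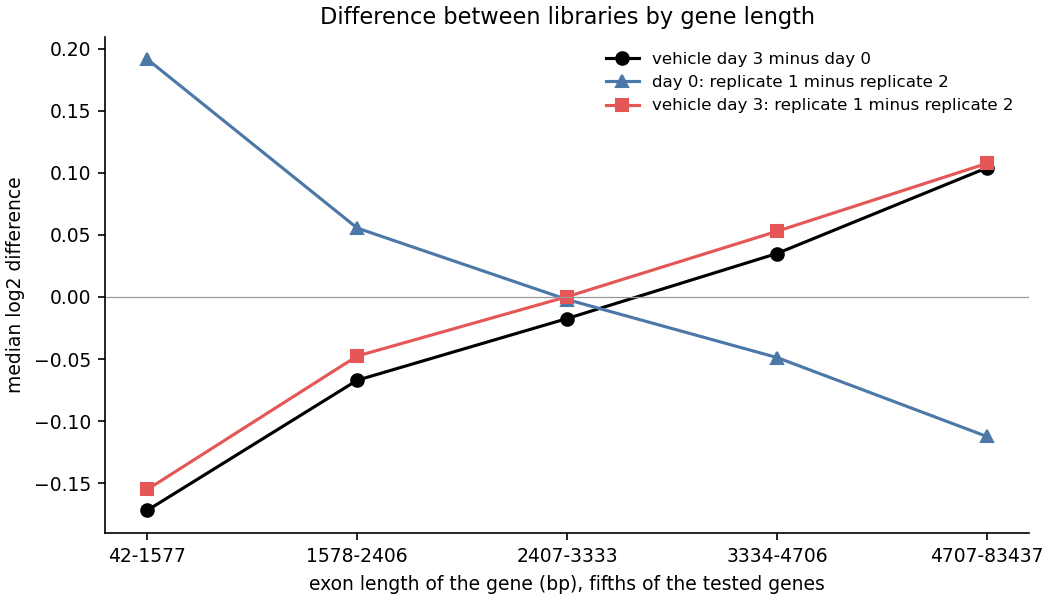
Median log2 difference (vertical axis) in 5 equal bins of the 11283 tested genes by exon length in bp (horizontal axis), for vehicle day 3 minus day 0 (black) and for replicate 1 minus replicate 2 within each group (blue, day 0; red, vehicle). The change between groups rose from -0.17 in the shortest bin to 0.10 in the longest, against 0.19 to -0.11 and -0.16 to 0.11 between replicates.

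After 3 days in vehicle, 423 of 11283 tested genes were higher than at day 0 (3.75%) and 450 were lower (3.99%), at an adjusted p under 0.05 in edgeR's quasi-likelihood test with Benjamini-Hochberg adjustment. These 873 genes (7.74%) are termed called. The shares of 3.75% and 3.99% are the background for every list count below. Most changes were small: 40 genes rose (0.355%) and 92 fell (0.815%) by over 2-fold, and the median log2 change of all tested genes was -0.02. Genes with a histone (Hist) symbol made up 42 of the rises, and granule genes such as Fcnb and Elane and the lipid enzymes Dgat2 and Sgms2 were among the largest. Egr1 had the largest fall. The falls included genes of the ATF4 response and of inflammation, and Cpa3, the 1 gene called of 5 tested mast cell and basophil markers.

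The number of calls depended on the scaling, on single libraries and on the drug group. With only the 2 compared groups in the fit, edgeR called 527 genes, 269 higher and 258 lower. With library totals in place of TMM factors the median log2 change of all genes was 0.10 and 1957 genes were called, 1741 higher and 216 lower, and DESeq2 called 491, 255 higher and 236 lower. Of the gene lists described below, those with a median log2 change between -0.12 and 0 had one above 0 with library totals, among them those of the unfolded protein response, cholesterol and fatty acid synthesis, glycolysis, hypoxia and sterol efflux lists. With edgeR and TMM, the number of genes called was 359 without day 0 replicate 1, 2012 without day 0 replicate 2, 351 without vehicle replicate 1, 890 without vehicle replicate 2, and 530 and 535 without drug replicate 1 and 2. In all, 258 genes (122 higher, 136 lower) were called in each of these 6 fits. Every gene given below as risen or fallen is among the 258 unless the libraries whose omission ended its call are stated with the adjusted p.

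**Figure D2:**
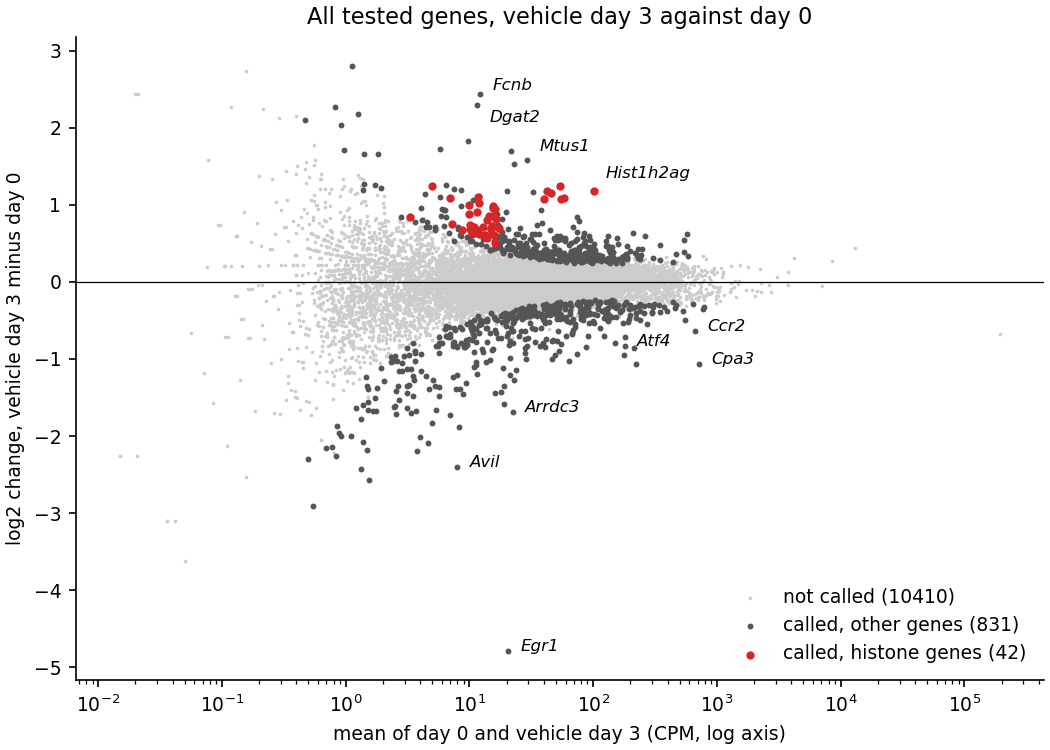
Log2 change from day 0 to vehicle day 3 (vertical axis) against mean level in CPM (horizontal axis, log scale) for each tested gene. Grey points were not called (10410), dark points were called (831), and red points are called histone genes (42), all of them above 0; Egr1 lies alone at -4.79.

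**Figure D3:**
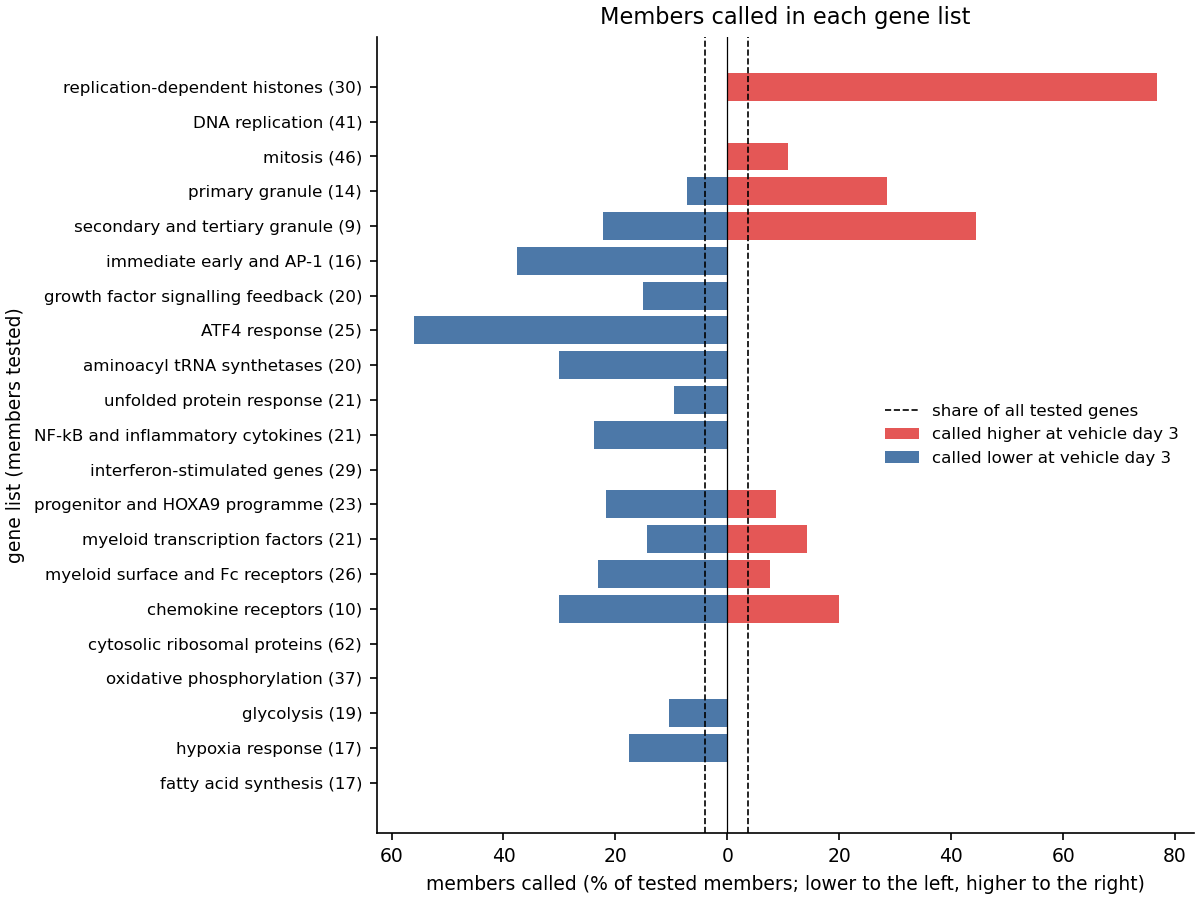
Share of tested members called higher (red, to the right) or lower (blue, to the left) in 21 gene lists, with the number of tested members in brackets and dashed lines at the share of all tested genes (3.75% and 3.99%). Histones stand furthest to the right and the ATF4 response furthest to the left.

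Most core histone mRNAs rose. Of 57 tested genes with a Hist symbol (68 in the table), 42 were called higher, or 73.7% against 3.75% of all genes, and 0 were called lower. In the list of 30 replication-dependent genes 23 rose (76.7%), or 12 without day 0 replicate 1 or vehicle replicate 1. The median log2 change of the 57 was 0.71, their range was 0.12 to 1.25, and 57 of 57 lay above 0. Summed over all 68 genes, tested or not, histone mRNA stood at 600.3 and 689 CPM at day 0 and at 1250 and 1122 CPM at vehicle day 3, a 1.84-fold rise. Both vehicle libraries were above both day 0 libraries. The drug libraries, also at day 3, held 875 and 842 CPM, between those of the other groups.

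Genes for H2A, which pairs with H2B on the face of the nucleosome, had the largest summed rise. Their summed level was 259 and 301 CPM at day 0 and 652 and 558 CPM at vehicle day 3, or 2.16-fold, and 11 of 13 tested were called. Class sums include genes that were not tested. H2B genes summed to 100.3 and 124 CPM at day 0 and 177 and 172 CPM at vehicle day 3 (1.56-fold, 9 of 15 called). H3 genes went from 100.3 and 116 CPM to 174 and 175 CPM (1.61-fold, 10 of 12 called), and H4 genes from 102 and 105 CPM to 182 and 164 CPM (1.67-fold, 10 of 12 called). Linker histone H1 genes had the smallest summed rise, from 38.6 and 43.1 CPM to 64.4 and 53.9 CPM (1.45-fold, 2 of 5 called, Hist1h1d and Hist1h1e). Hist1h1d lost its call without day 0 replicate 1 (0.192) or vehicle replicate 1 (0.188), and Hist1h1e as given below. In each class the replicates of the groups did not overlap.

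**Figure D4:**
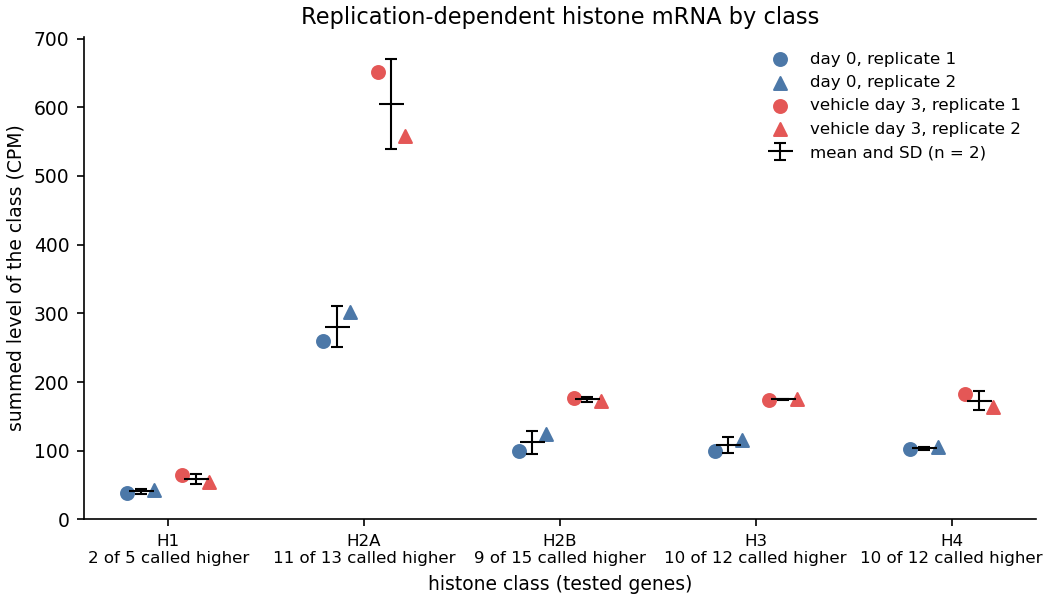
Summed CPM of all genes of each histone class, tested or not (vertical axis), in each library: blue, day 0, and red, vehicle day 3. Circles are replicate 1, triangles are replicate 2, and black bars are the mean and SD of 2 libraries. All 5 classes were higher in both vehicle libraries, H2A most (259 and 301 against 652 and 558 CPM).

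Hist1h2ag, which encodes an H2A, stood at 54.4 and 69.2 CPM at day 0 and 153 and 126 CPM at vehicle day 3 (log2 change 1.19 ± 0.11 (SE), adjusted p = 4.83e-05). Its vehicle values were both above its day 0 values, as they were for Hist1h2af, at 30.1 and 34.9 CPM at day 0 and 81.5 and 71.2 CPM at vehicle day 3 (log2 change 1.24 ± 0.09 (SE), adjusted p = 1.37e-05). Hist1h2ac rose from 22.6 and 30.2 CPM to 67.2 and 50.8 CPM (log2 change 1.18 ± 0.14 (SE), adjusted p = 0.00048). Outside H2A, the H4 gene Hist1h4d stood at 8.32 and 6.32 CPM at day 0 and 16.4 and 15.5 CPM at vehicle day 3 (log2 change 1.10 ± 0.15 (SE), adjusted p = 0.000852), and the H3 gene Hist2h3b at 7.60 and 8.48 CPM at day 0 and 13.7 and 16.4 CPM at vehicle day 3 (log2 change 0.91 ± 0.14 (SE), adjusted p = 0.002). Neither gene's groups overlapped. Hist2h2bb, an H2B gene, had the largest change of the family at a low level, 2.69 and 3.32 CPM at day 0 and 7.98 and 6.10 CPM at vehicle day 3 (log2 change 1.25 ± 0.23 (SE), adjusted p = 0.00648). The call ended without day 0 replicate 1 (0.0559) or vehicle replicate 1 (0.0703). The linker gene Hist1h1e stood at 11.7 and 15.0 CPM at day 0 and 23 and 20.1 CPM at vehicle day 3 (log2 change 0.70 ± 0.13 (SE), adjusted p = 0.00713). It was not called without day 0 replicate 1 (0.0674) or vehicle replicate 1 (0.0634).

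The proximal promoters of these genes show what they share in sequence. In RefSeq promoter tables (GRCm38.p6), which run from 250 bases before to 50 after each start, CCAAT, the word bound by NF-Y, was found on either strand in 34 of 41 promoters of called histone genes (82.9%), in 11 of 12 of tested histone genes that were not called (91.7%) and in 37.4% of 32851 promoters of all genes. The E2F word TTTCGCG was in 10 of 41 (24.4%), in 3 of 12 (25%) and in 0.849%. A second E2F word, TTTGGCG, was in 0 of 41, in 0 of 12 and in 1.56%. Words were counted on both strands and without regard to overlap, and 40 of 42 called genes were matched to RefSeq. Shares of both words in called and in not called histone genes were close. For each class, the window shown belongs to the called gene with the largest rise among those with 1 promoter entry and the word upstream of the start. Hist2h3c2 rose more than Hist2h3b (log2 change 0.96 against 0.91) but has its word 14 bases after the start. Each window runs from 100 bases before to 20 bases after its annotated start, 5′ to 3′ on the gene's strand. Capitals mark CCAAT or its reverse complement.
Hist1h1e (H1, chr13:23622539-23622658, minus strand): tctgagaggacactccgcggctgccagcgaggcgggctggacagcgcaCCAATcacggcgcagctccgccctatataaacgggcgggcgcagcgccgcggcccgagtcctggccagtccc
Hist1h2af (H2A, chr13:23533775-23533894, plus strand): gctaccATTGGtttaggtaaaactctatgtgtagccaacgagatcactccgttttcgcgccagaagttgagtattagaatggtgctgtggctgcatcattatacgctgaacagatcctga
Hist2h2bb (H2B, chr3:96269600-96269719, plus strand): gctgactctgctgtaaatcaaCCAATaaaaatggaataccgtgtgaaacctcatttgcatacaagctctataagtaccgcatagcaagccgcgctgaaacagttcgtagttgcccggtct
Hist2h3b (H3, chr3:96268554-96268673, plus strand): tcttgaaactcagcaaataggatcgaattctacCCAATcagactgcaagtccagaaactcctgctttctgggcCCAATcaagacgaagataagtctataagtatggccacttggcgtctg
Hist1h4d (H4, chr13:23581468-23581587, plus strand): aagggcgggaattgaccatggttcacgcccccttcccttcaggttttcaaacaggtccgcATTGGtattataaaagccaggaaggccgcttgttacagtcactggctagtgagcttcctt

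The word begins 52 bases before the start in Hist1h1e, 94 in Hist1h2af, 79 in Hist2h2bb and 40 in Hist1h4d, and occurs in 2 copies, at 67 and 27 bases, in Hist2h3b.

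Genes of DNA replication and mitosis are given for comparison with the histone genes. Of 41 tested DNA replication genes (helicase, polymerase and clamp subunits), edgeR called 0 in either direction, with a median log2 change of 0.03. At an unadjusted p under 0.05, 5 were higher and 2 lower, and DESeq2 called 0. With library totals in place of TMM, edgeR called 11 higher (median 0.15), and without day 0 replicate 2 it called 2 higher and 1 lower. Mki67, a marker of cycling cells, was at 1155 and 1243 CPM at day 0 and 1447 and 1312 CPM at vehicle day 3 and did not pass (log2 change 0.20 ± 0.09 (SE), adjusted p = 0.167). Of 46 mitosis genes, 5 were called higher (10.9% against 3.75% of all genes) and 0 lower, or 20 higher with library totals. Of the 5, only Anln, the cleavage furrow protein anillin, kept its call in all 6 fits, at 116 and 116 CPM at day 0 and 154 and 155 CPM at vehicle day 3 (log2 change 0.41 ± 0.07 (SE), adjusted p = 0.00254). The count of mitosis genes higher was 1 without either drug library, without day 0 replicate 1 or without vehicle replicate 1, and 2 without vehicle replicate 2; 3 were called lower without day 0 replicate 2.

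Among 14 factors that make and process histone mRNA, a list added after values were seen, Lsm11 of the U7 particle was the 1 gene called, at 19.7 and 21.4 CPM at day 0 and 29.7 and 27.4 CPM at vehicle day 3 (log2 change 0.48 ± 0.10 (SE), adjusted p = 0.0124); it lost its call without day 0 replicate 1 (0.0861) or vehicle replicate 1 (0.091). Slbp, which binds the stem-loop, was at 108 and 103 CPM at day 0 and 96.5 and 112 CPM at vehicle day 3 (log2 change -0.01 ± 0.08 (SE), adjusted p = 0.961). Npat, the coactivator of histone genes, was at 81.0 and 97.3 CPM at day 0 and 95.5 and 92.6 CPM at vehicle day 3 (log2 change 0.08 ± 0.09 (SE), adjusted p = 0.581). Neither passed, and the groups overlapped in both. The list of replication-independent histones was also added after values were seen. Replication-independent histones, whose mRNA is polyadenylated, had 0 of 10 called higher and 1 lower, H3f3b (log2 change -0.33 ± 0.09 (SE), adjusted p = 0.0331), which lost its call without drug replicate 1 (0.0904), drug replicate 2 (0.0818), day 0 replicate 1 (0.172) or vehicle replicate 1 (0.255). The list's lower count was 4 without day 0 replicate 2 and 2 without vehicle replicate 2.

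Several measures moved beside the histone genes. Among RNAs made without a poly(A) tail, Rpph1, the RNA of ribonuclease P, went from 13.9 and 17.6 CPM to 26.3 and 23.9 CPM (log2 change 0.69 ± 0.15 (SE), adjusted p = 0.0146). The call did not hold without day 0 replicate 1 (0.12) or vehicle replicate 1 (0.0874). Rmrp was at 29.4 and 38.1 CPM at day 0 and 42.4 and 49.4 CPM at vehicle day 3 without passing (log2 change 0.45 ± 0.13 (SE), adjusted p = 0.0562), and the share of Rn45s was lower, as given above, without passing. These genes were picked after their values were seen, and the part of poly(A) selection in the histone result was not tested. The histone genes are short (median 468 bp), while the shortest length bin of all genes had a median log2 change of -0.17. With length removed, an alternative chosen after values were seen, 48 histone genes were called at a median of 0.92. The count of called histone genes was 24 without day 0 replicate 1 and 24 without vehicle replicate 1. Near-identical copies within the family can share reads, so values of single genes are less certain than class sums, and in bulk RNA more cells in S phase and more histone mRNA per cell cannot be told apart.

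Egr1, a zinc finger factor induced within minutes by growth factor signals, had the largest fall of any called gene. It stood at 38.9 and 40.2 CPM at day 0 and 1.98 and 0.836 CPM at vehicle day 3 (log2 change -4.79 ± 0.20 (SE), adjusted p = 7.74e-08). The day 0 libraries were close to each other, and both vehicle libraries were far below them. The drug libraries were also low, at 1.60 and 1.29 CPM. Of 16 tested immediate early and AP-1 genes, 6 fell (37.5% against 3.99% of all genes) and 0 rose, with a median log2 change of -0.54. The AP-1 subunit Jun was at 4.97 and 4.90 CPM at day 0 and 2.06 and 2.17 CPM at vehicle day 3 (log2 change -1.22 ± 0.21 (SE), adjusted p = 0.00416), a fall seen in both vehicle libraries. Klf6, a Krüppel-like factor, was at 31.8 and 25.0 CPM at day 0 and 16.3 and 12.5 CPM at vehicle day 3 (log2 change -0.99 ± 0.15 (SE), adjusted p = 0.00183). Ier2, a nuclear immediate early protein, was at 32.5 and 31.2 CPM at day 0 and 18.3 and 22.8 CPM at vehicle day 3 (log2 change -0.63 ± 0.11 (SE), adjusted p = 0.00432). Their groups did not overlap. Junb fell (log2 change -0.57 ± 0.11 (SE), adjusted p = 0.00784) and lost its call without vehicle replicate 1 (0.0703). Egr2, at 1.38 and 2.33 CPM at day 0 and 0.474 and 0.669 CPM at vehicle day 3 (log2 change -1.64 ± 0.42 (SE), adjusted p = 0.0328), lost its call without drug replicate 1 (0.0617), drug replicate 2 (0.057), day 0 replicate 2 (0.0858), vehicle replicate 1 (0.245) or vehicle replicate 2 (0.071). Fos did not pass, at 12.8 and 11.47 CPM at day 0 and 8.78 and 9.95 CPM at vehicle day 3 (log2 change -0.38 ± 0.14 (SE), adjusted p = 0.103), nor did Myc, at 264 and 295 CPM at day 0 and 339 and 314 CPM at vehicle day 3 (log2 change 0.23 ± 0.08 (SE), adjusted p = 0.0978). The 6 calls became 4 without vehicle replicate 1.

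Inhibitors that growth factor signals induce also included falls, beside 3.99% of all tested genes called lower. Spry1, a Sprouty protein that damps receptor tyrosine kinases, went from 11.4 and 11.97 CPM to 7.11 and 5.85 CPM (log2 change -0.84 ± 0.15 (SE), adjusted p = 0.00428). Its relative Spry4 went from 66.1 and 59.8 CPM to 45.2 and 36.0 CPM (log2 change -0.63 ± 0.10 (SE), adjusted p = 0.00262). Both were lower in each vehicle library. Dusp2, a phosphatase of MAP kinases, fell (log2 change -0.66 ± 0.13 (SE), adjusted p = 0.00848) and lost its call without day 0 replicate 1 (0.0861) or vehicle replicate 1 (0.0723). They were the 3 called genes of 20 tested (15% lower, 0 higher), where the median log2 change was -0.17, and the count was 2 without day 0 replicate 1 or vehicle replicate 1.

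Genes of the ATF4 response were lower at vehicle day 3. Of 25 tested, 14 fell (56% against 3.99% of all genes) and 0 rose, and the median log2 change was -0.41 against -0.02 for all genes. Atf4 itself was at 255 and 191 CPM at day 0 and 130.3 and 141 CPM at vehicle day 3 (log2 change -0.72 ± 0.11 (SE), adjusted p = 0.00197). The lower day 0 library was above the higher vehicle library. Trib3, a pseudokinase induced by ATF4, was at 34.8 and 22.0 CPM at day 0 and 9.49 and 9.70 CPM at vehicle day 3 (log2 change -1.58 ± 0.19 (SE), adjusted p = 0.000421). Ppp1r15a, which brings a phosphatase to the initiation factor eIF2 alpha, was at 26.6 and 20.3 CPM at day 0 and 9.17 and 8.28 CPM at vehicle day 3 (log2 change -1.44 ± 0.15 (SE), adjusted p = 0.000133). Trib3 and Ppp1r15a were among the largest falls, which were named on condition that the groups did not overlap.

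Enzymes of mitochondrial folate metabolism were among the falls. Aldh1l2 was at 8.14 and 4.16 CPM at day 0 and 1.42 and 1.34 CPM at vehicle day 3 (log2 change -2.19 ± 0.34 (SE), adjusted p = 0.00199). Mthfd2 was at 84.1 and 66.1 CPM at day 0 and 44.7 and 47.7 CPM at vehicle day 3 (log2 change -0.71 ± 0.10 (SE), adjusted p = 0.00145). In both, day 0 replicate 1 was the highest library. Slc6a9, a glycine transporter, was at 9.03 and 5.15 CPM at day 0 and 2.92 and 3.09 CPM at vehicle day 3 (log2 change -1.28 ± 0.27 (SE), adjusted p = 0.0124). It lost its call without day 0 replicate 1 (0.143) or vehicle replicate 1 (0.0759). Atf5, a related factor, was at 81.3 and 89.1 CPM at day 0 and 61.9 and 54.2 CPM at vehicle day 3 (log2 change -0.55 ± 0.08 (SE), adjusted p = 0.00193). Asns (asparagine synthetase), Psph (serine synthesis) and Sesn2 (a stress sensor) had log2 changes of -0.42, -0.60 and -0.67. Asns lost its call without drug replicate 1 (0.0653), drug replicate 2 (0.0609), day 0 replicate 1 (0.314) or vehicle replicate 2 (0.144), Psph without drug replicate 1 (0.0605), drug replicate 2 (0.0589), day 0 replicate 1 (0.417), vehicle replicate 1 (0.14) or vehicle replicate 2 (0.0971), and Sesn2 without day 0 replicate 1 (0.108) or vehicle replicate 2 (0.0763). Chac1 (log2 change -0.77 ± 0.29 (SE), adjusted p = 0.128), Ddit4 (log2 change -0.35 ± 0.19 (SE), adjusted p = 0.264) and the cystine transporter Slc7a11 (log2 change 0.16 ± 0.07 (SE), adjusted p = 0.195) did not pass.

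Of 20 aminoacyl tRNA synthetases, which charge tRNAs with amino acids, 6 fell (30% against 3.99% of all genes) and 0 rose. Their median log2 change was -0.19. Sars was at 164 and 137 CPM at day 0 and 112 and 105 CPM at vehicle day 3 (log2 change -0.48 ± 0.09 (SE), adjusted p = 0.00503). Wars was at 152 and 135 CPM at day 0 and 110.4 and 106 CPM at vehicle day 3 (log2 change -0.41 ± 0.08 (SE), adjusted p = 0.00699). Farsa was at 107 and 109.5 CPM at day 0 and 77.9 and 85.5 CPM at vehicle day 3 (log2 change -0.41 ± 0.07 (SE), adjusted p = 0.00428). In each of them the vehicle libraries lay below both day 0 libraries. The count was 3 without vehicle replicate 2 and 9 without day 0 replicate 2.

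In the unfolded protein response 2 of 21 genes fell and 0 rose (median -0.03), or 4 and 1 without day 0 replicate 2. Ddit3, the stress factor CHOP, was at 79.3 and 58.3 CPM at day 0 and 37.5 and 37.0 CPM at vehicle day 3 (log2 change -0.89 ± 0.12 (SE), adjusted p = 0.000852). Ern1, the sensor IRE1, was at 239 and 264 CPM at day 0 and 199.5 and 182 CPM at vehicle day 3 (log2 change -0.40 ± 0.08 (SE), adjusted p = 0.00828). The call ended without vehicle replicate 2 (0.0566). Groups did not overlap in either gene, and the share of this list called lower was 9.52% against 3.99% of all genes. The 14 falling genes of the ATF4 list also differed within day 0: 13 of 14 were higher in replicate 1 than in replicate 2, by a median log2 difference of 0.36. The number of falling genes depended on which library was left out. Of the 25 tested members, called or not, 20 were lower and 2 higher without overlap of the groups. The shares of all genes were 26.9% and 23.9%. The core of the ATF4 composite element, TGATGCA on either strand, was found in 1 of 16 RefSeq promoters of the falling genes (6.25%) and in 3.15% of all promoters. In falling synthetase genes it was in 2 of 4 promoters (50%). The hypoxia word GCGTG was in 11 of the 16 promoters of the ATF4 list (68.8%) and in 32.4% of all. CCAAT was in 6 of 8 promoters of falling immediate early genes (75%), from 4 genes, and in 37.4% of all. The part of these words in the falls was not tested.

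**Figure D5:**
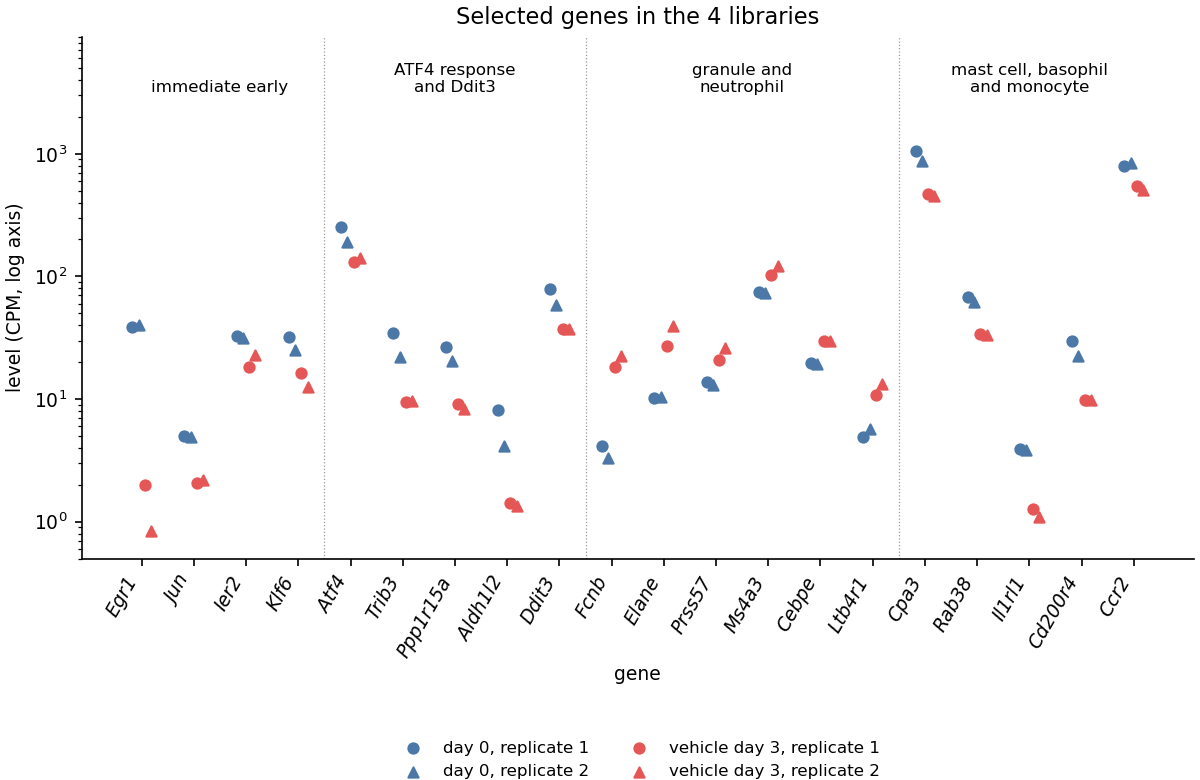
Level in CPM (vertical axis, log scale) of 20 genes in each library: blue, day 0; red, vehicle day 3; circles, replicate 1; triangles, replicate 2. The 20 genes were picked from called genes, so their directions and separation describe the choice and not their lists. Those shown of the immediate early, ATF4 and mast cell groups, and Ccr2 as the only monocyte gene, were lower in both vehicle libraries. The granule and neutrophil genes shown were higher, and in no gene shown did the groups overlap.

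Granule genes of early neutrophil precursors rose in part. Fcnb, the lectin ficolin B, had the largest rise among called genes of at least 10 CPM in the higher group, from 4.13 and 3.32 CPM to 18.4 and 22.6 CPM (log2 change 2.44 ± 0.17 (SE), adjusted p = 6.81e-06). Both vehicle libraries were several times the day 0 level, whereas the drug libraries held 1.84 and 1.94 CPM. Elane, neutrophil elastase, stood at 10.1 and 10.5 CPM at day 0 and 27.0 and 39.7 CPM at vehicle day 3 (log2 change 1.69 ± 0.16 (SE), adjusted p = 6.28e-05), and the drug libraries at 37.1 and 35.2 CPM. Prss57, another granule protease, was at 13.7 and 12.97 CPM at day 0 and 20.9 and 26.2 CPM at vehicle day 3 (log2 change 0.81 ± 0.13 (SE), adjusted p = 0.00199). Ms4a3, a membrane protein of granulocyte-monocyte progenitors, was at 74.9 and 73.5 CPM at day 0 and 103 and 120.5 CPM at vehicle day 3 (log2 change 0.59 ± 0.08 (SE), adjusted p = 0.000874). These genes were higher in both vehicle libraries. They were the 4 called higher of 14 tested primary granule genes (28.6% against 3.75% of all genes). The 1 called lower (7.14% against 3.99%) was the protease inhibitor Cst7 (log2 change -0.35 ± 0.09 (SE), adjusted p = 0.0322). It was not called without drug replicate 1 (0.0717), drug replicate 2 (0.0666), day 0 replicate 1 (0.265) or vehicle replicate 1 (0.195). The list's median was 0.10.

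Other primary granule genes did not pass. Mpo, myeloperoxidase, was at 3495 and 4027 CPM at day 0 and 4647 and 4646 CPM at vehicle day 3 (log2 change 0.31 ± 0.10 (SE), adjusted p = 0.0934), so both vehicle libraries were above both day 0 libraries. Prtn3, proteinase 3, was at 309 and 264 CPM at day 0 and 279 and 377 CPM at vehicle day 3 (log2 change 0.19 ± 0.12 (SE), adjusted p = 0.347). Ctsg, cathepsin G, was at 1148 and 945 CPM at day 0 and 888 and 1022 CPM at vehicle day 3 (log2 change -0.13 ± 0.10 (SE), adjusted p = 0.453). In these the groups overlapped. Per gene length, mean Mpo was 1477 RPKM (reads scaled by exon length and library size) at day 0 and 1825 RPKM at vehicle day 3, against 11.2 and 36.2 RPKM for Elane and 3.51 and 19.3 RPKM for Fcnb.

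Of 9 tested secondary and tertiary granule genes, which neutrophils switch on later, 4 rose (44.4%) and 2 fell (22.2%). The shares of all genes were 3.75% and 3.99%, and the list's median was 0.13. Cebpe, the factor of late granulocyte maturation, was at 19.5 and 19.4 CPM at day 0 and 29.8 and 30.0 CPM at vehicle day 3 (log2 change 0.62 ± 0.09 (SE), adjusted p = 0.00161). Ltb4r1, a leukotriene B4 receptor, was at 4.91 and 5.65 CPM at day 0 and 10.8 and 13.2 CPM at vehicle day 3 (log2 change 1.19 ± 0.16 (SE), adjusted p = 0.000767). Replicates agreed closely for Cebpe, and neither gene's groups overlapped. Mmp8, neutrophil collagenase, stood at 4.01 and 5.07 CPM at day 0 and 7.91 and 12.8 CPM at vehicle day 3 (log2 change 1.20 ± 0.23 (SE), adjusted p = 0.00692). The call did not hold without day 0 replicate 1 (0.0642) or vehicle replicate 2 (0.0542). Chi3l3, a chitinase-like protein, rose (log2 change 1.14 ± 0.23 (SE), adjusted p = 0.0104) and lost its call without day 0 replicate 1 (0.102) or vehicle replicate 2 (0.0556). Anxa1, an anti-inflammatory annexin, fell from 158 and 144 CPM to 84.8 and 102 CPM (log2 change -0.70 ± 0.09 (SE), adjusted p = 0.000767). Adam8, a surface protease, went from 6.88 and 8.23 CPM to 1.90 and 1.59 CPM (log2 change -2.09 ± 0.22 (SE), adjusted p = 0.000133). The rises were 2 without day 0 replicate 1 or vehicle replicate 2. The 11 markers of mature neutrophils found in the table, which include Mmp8 and the growth factor receptor Csf3r, summed to 64.7 and 59.8 CPM at day 0 and 64.6 and 68.8 CPM at vehicle day 3; Camp and Retnlg were at 0. Of 6 tested, 2 were called higher, Mmp8 and S100a8, the latter from 0.239 and 0.332 CPM to 1.82 and 0.920 CPM (edgeR adjusted p = 0.0378, lost without day 0 replicate 1 (0.223) or vehicle replicate 1 (0.338)). Their part in these results was not tested.

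Among genes of the progenitor state, some were called and several central ones did not pass. Hoxa9 was at 292 and 286 CPM at day 0 and 288 and 275 CPM at vehicle day 3 (log2 change -0.04 ± 0.07 (SE), adjusted p = 0.758). Esr1, whose hormone-binding part the fusion carries, was at 158 and 156 CPM at day 0 and 158 and 137 CPM at vehicle day 3 (log2 change -0.09 ± 0.08 (SE), adjusted p = 0.484). Neither passed. Kit, the receptor for stem cell factor, was at 876 and 961 CPM at day 0 and 1018 and 958 CPM at vehicle day 3 (log2 change 0.11 ± 0.08 (SE), adjusted p = 0.448). Cd34 was at 1415 and 1377 CPM at day 0 and 1314 and 1364 CPM at vehicle day 3 (log2 change -0.06 ± 0.08 (SE), adjusted p = 0.675). Myb, which maintains progenitors, was at 1073 and 1078 CPM at day 0 and 1144 and 1201 CPM at vehicle day 3 (log2 change 0.12 ± 0.08 (SE), adjusted p = 0.343). None of these genes was called.

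Flt3, a receptor of early myeloid and lymphoid progenitors, rose from 211 and 211 CPM to 283 and 283 CPM (log2 change 0.42 ± 0.07 (SE), adjusted p = 0.00334). The replicates nearly coincided. The drug libraries held 518 and 536 CPM. Runx1, a factor of blood formation, was at 40.3 and 44.9 CPM at day 0 and 60.1 and 52.5 CPM at vehicle day 3 (log2 change 0.41 ± 0.09 (SE), adjusted p = 0.0149). It lost its call without day 0 replicate 1 (0.11) or vehicle replicate 1 (0.132). Meis1, a partner of HOXA9, was at 49.4 and 48.2 CPM at day 0 and 39.0 and 36.0 CPM at vehicle day 3 (log2 change -0.38 ± 0.08 (SE), adjusted p = 0.0134). The call ended without day 0 replicate 1 (0.0621) or vehicle replicate 2 (0.0702). Trib2, a pseudokinase that promotes degradation of C/EBP alpha, fell from 128 and 114 CPM to 86.6 and 81.3 CPM (log2 change -0.53 ± 0.08 (SE), adjusted p = 0.00131). Trib1, its relative, was at 12.1 and 11.47 CPM at day 0 and 5.69 and 7.53 CPM at vehicle day 3 (log2 change -0.84 ± 0.16 (SE), adjusted p = 0.00634). It was not called without vehicle replicate 1 (0.0757). Satb1 and Lmo2 had log2 changes of -0.39 and -0.30; Satb1 lost its call without drug replicate 1 (0.067), drug replicate 2 (0.0629), day 0 replicate 1 (0.155) or vehicle replicate 2 (0.137), and Lmo2 without drug replicate 1 (0.0638), drug replicate 2 (0.0551), day 0 replicate 1 (0.0636) or vehicle replicate 1 (0.111). In all, 2 of 23 genes of the progenitor and HOXA9 list were called higher (8.7%) and 5 lower (21.7%), against 3.75% and 3.99% of all genes, with a median of 0.02. The lower count was 2 without day 0 replicate 1 and 3 without any one of the vehicle or drug libraries, and the higher count was 1 without day 0 replicate 1 or vehicle replicate 1, and 3 without day 0 replicate 2.

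Of 21 tested myeloid transcription factors, 3 were called higher and 3 lower (14.3% each, against 3.75% and 3.99% of all genes). These were Cebpe, Runx1 and Tfec, a factor of the MITF family (log2 change 0.59 ± 0.11 (SE), adjusted p = 0.0048), and Egr1, Egr2 and Irf5, an interferon regulatory factor (log2 change -0.71 ± 0.16 (SE), adjusted p = 0.0197). Irf5 lost its call without day 0 replicate 1 (0.0851) or vehicle replicate 1 (0.186). The lower count was 1 without vehicle replicate 1. Several central factors did not pass. Sfpi1, which encodes PU.1, was at 56.9 and 55.8 CPM at day 0 and 59.3 and 65.0 CPM at vehicle day 3 (log2 change 0.14 ± 0.08 (SE), adjusted p = 0.261). Cebpa was at 162 and 159 CPM at day 0 and 179.8 and 175 CPM at vehicle day 3 (log2 change 0.14 ± 0.07 (SE), adjusted p = 0.191). Gfi1 was at 266 and 253 CPM at day 0 and 248 and 281 CPM at vehicle day 3 (log2 change 0.03 ± 0.08 (SE), adjusted p = 0.862). For PU.1 and Cebpa both vehicle libraries were slightly above day 0. Irf8, a monocyte and dendritic cell factor, was low, at 6.04 and 7.56 CPM at day 0 and 6.25 and 6.35 CPM at vehicle day 3 (log2 change -0.09 ± 0.17 (SE), adjusted p = 0.77). Itgam, the integrin CD11b, was at 13.6 and 12.3 CPM at day 0 and 11.8 and 15.2 CPM at vehicle day 3 (log2 change 0.05 ± 0.14 (SE), adjusted p = 0.864). Csf1r, the receptor of monocytes, was at 1.38 and 1.33 CPM at day 0 and 1.58 and 1.92 CPM at vehicle day 3 (log2 change 0.36 ± 0.28 (SE), adjusted p = 0.476). In Gfi1, Irf8 and Itgam the groups overlapped. Cdkn1a, an inhibitor of the cell cycle, was at 6.88 and 7.56 CPM at day 0 and 7.43 and 6.61 CPM at vehicle day 3 (log2 change -0.03 ± 0.16 (SE), adjusted p = 0.92). Cdkn2a, which encodes the p16 and p19 inhibitors, fell from 129 and 94.6 CPM to 54.6 and 71.1 CPM (log2 change -0.84 ± 0.14 (SE), adjusted p = 0.00292).

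Receptors of monocytes and of inflammation moved both ways. Ccr2, the chemokine receptor of inflammatory monocytes, fell from 793 and 835 CPM to 543 and 503 CPM (log2 change -0.64 ± 0.08 (SE), adjusted p = 0.000625). Its groups were far apart relative to their replicates. Monocyte and macrophage markers, Ccr2 among them, summed to 1178 and 1236 CPM at day 0 and 1003 and 944 CPM at vehicle day 3, with C1qa and C1qc at 0. Without Ccr2 the other markers summed to 385 and 402 CPM at day 0 and 460.3 and 441 CPM at vehicle day 3, so the lower sum came from Ccr2. Cxcr4, which keeps progenitors in the marrow, was at 35.4 and 31.2 CPM at day 0 and 42.0 and 44.3 CPM at vehicle day 3 (log2 change 0.37 ± 0.09 (SE), adjusted p = 0.0227); it lost its call without drug replicate 1 (0.0543), drug replicate 2 (0.0575), day 0 replicate 2 (0.0529), vehicle replicate 1 (0.0609) or vehicle replicate 2 (0.0668). S1pr3 rose (log2 change 0.37 ± 0.09 (SE), adjusted p = 0.0314), lost without drug replicate 1 (0.0677), drug replicate 2 (0.071), day 0 replicate 1 (0.211) or vehicle replicate 1 (0.171), and Ccr1 fell (log2 change -1.67 ± 0.42 (SE), adjusted p = 0.0314), lost without drug replicate 1 (0.0502), day 0 replicate 1 (0.381), vehicle replicate 1 (0.0765) or vehicle replicate 2 (0.118).

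Clec4e, the lectin receptor Mincle, fell from 203 and 181 CPM to 110.0 and 112 CPM (log2 change -0.79 ± 0.08 (SE), adjusted p = 5.95e-05), and the tetraspanin Cd53 from 244 and 208 CPM to 157 and 158 CPM (log2 change -0.52 ± 0.08 (SE), adjusted p = 0.00252). Cd33, a sialic acid-binding lectin, rose from 287 and 290.2 CPM to 383 and 419.6 CPM (log2 change 0.48 ± 0.08 (SE), adjusted p = 0.00254). Tlr4, the receptor for lipopolysaccharide, went from 58.1 and 61.4 CPM to 78.5 and 76.3 CPM (log2 change 0.37 ± 0.07 (SE), adjusted p = 0.00595). None of these genes' groups overlapped. Fcgr3, a low-affinity Fc receptor used to gate these progenitors, was at 107 and 94.3 CPM at day 0 and 81.7 and 78.3 CPM at vehicle day 3 (log2 change -0.34 ± 0.08 (SE), adjusted p = 0.0184). The call did not hold without drug replicate 1 (0.0529), day 0 replicate 1 (0.153), vehicle replicate 1 (0.061) or vehicle replicate 2 (0.0738). Of 26 myeloid surface genes, 2 were called higher (7.69%) and 6 lower (23.1%), against 3.75% and 3.99% of all genes (median -0.08, or 0.04 with library totals). The lower count was 2 without day 0 replicate 1, 3 without vehicle replicate 2, 4 without vehicle replicate 1 or drug replicate 1, and 10 without day 0 replicate 2, and the higher count was 3 without day 0 replicate 1 or vehicle replicate 1.

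Integrins included larger falls, in a list with 25% of members called lower against 3.99% of all genes. Itga2b, the platelet integrin also found on early progenitors, went from 37.3 and 28.0 CPM to 11.9 and 15.3 CPM (log2 change -1.28 ± 0.17 (SE), adjusted p = 0.000727). Itgb7, which pairs with alpha 4 and alpha E chains, went from 9.03 and 7.40 CPM to 3.00 and 3.43 CPM (log2 change -1.37 ± 0.19 (SE), adjusted p = 0.00113). Itga6, a laminin receptor chain, went from 311 and 337 CPM to 239.8 and 202 CPM (log2 change -0.55 ± 0.09 (SE), adjusted p = 0.00226). Each was lower in both vehicle libraries. Megakaryocyte markers, Itga2b among them, summed to 44.5 and 33.4 CPM at day 0 and 16.1 and 21.3 CPM at vehicle day 3. Without Itga2b the others summed to 7.24 and 5.40 CPM at day 0 and 4.19 and 6.02 CPM at vehicle day 3, which overlap. These integrins and Pecam1 (log2 change -0.35 ± 0.07 (SE), adjusted p = 0.00808) were the 4 falls among 16 adhesion genes (25%, median -0.13), beside 1 rise, Itga5, whose call was lost without drug replicate 1 (0.0729), drug replicate 2 (0.0726), day 0 replicate 1 (0.209) or vehicle replicate 1 (0.26).

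Among NF-kB and inflammatory genes, 5 of 21 fell (23.8% against 3.99% of all genes) and 0 rose (median -0.21). Nfkbiz, an atypical nuclear inhibitor of NF-kB, was at 31.4 and 25.7 CPM at day 0 and 16.6 and 16.6 CPM at vehicle day 3 (log2 change -0.79 ± 0.11 (SE), adjusted p = 0.00131). Ptgs2, the prostaglandin enzyme cyclooxygenase 2, was at 8.26 and 6.98 CPM at day 0 and 2.77 and 3.26 CPM at vehicle day 3 (log2 change -1.35 ± 0.20 (SE), adjusted p = 0.00145). Ccl3, a chemokine, was at 5.50 and 4.90 CPM at day 0 and 2.06 and 1.67 CPM at vehicle day 3 (log2 change -1.48 ± 0.24 (SE), adjusted p = 0.00287). All were lower in both vehicle libraries. Nlrp3, the inflammasome sensor, fell (log2 change -1.34 ± 0.23 (SE), adjusted p = 0.00351), and Il6 fell (log2 change -0.83 ± 0.18 (SE), adjusted p = 0.0155), lost without day 0 replicate 1 (0.169) or vehicle replicate 1 (0.0873). The count was 9 without day 0 replicate 2. Interferon-stimulated genes had 0 of 29 called by edgeR or DESeq2, with a median of -0.31; 8 were lower and 0 higher at an unadjusted p under 0.05, and edgeR called 5 lower without day 0 replicate 2 and 2 without vehicle replicate 2.

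The remaining large rises came from varied genes. Dgat2, which makes triglyceride from diacylglycerol, rose from 4.13 and 3.66 CPM to 18.3 and 20.2 CPM (log2 change 2.29 ± 0.14 (SE), adjusted p = 3.7e-06), and the drug libraries held 11.0 and 11.4 CPM. Mtus1, a microtubule-associated protein, rose from 14.4 and 14.8 CPM to 44.3 and 43.4 CPM (log2 change 1.59 ± 0.09 (SE), adjusted p = 1.1e-06) with closely agreeing replicates. Dgat2 in the drug libraries lay between day 0 and vehicle. Sgms2, sphingomyelin synthase 2, rose from 11.0 and 12.6 CPM to 31.3 and 36.4 CPM (log2 change 1.53 ± 0.12 (SE), adjusted p = 1.37e-05). Abca13, a lipid transporter of the ABC family, rose from 3.95 and 4.74 CPM to 17.7 and 12.9 CPM (log2 change 1.83 ± 0.18 (SE), adjusted p = 9.6e-05). Inhbb, the beta B subunit of activin, went from 11.7 and 12.97 CPM to 28.9 and 27.0 CPM (log2 change 1.18 ± 0.13 (SE), adjusted p = 0.000165). In each gene both vehicle libraries were above both day 0 libraries, which was a condition for naming it among the largest rises.

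Large falls also spanned several functions. Arrdc3, an arrestin-related adaptor, fell from 36.8 and 31.5 CPM to 12.02 and 9.20 CPM (log2 change -1.69 ± 0.14 (SE), adjusted p = 1.82e-05). Irs2, an adaptor of the insulin receptor, went from 28.6 and 26.5 CPM to 12.96 and 8.61 CPM (log2 change -1.35 ± 0.15 (SE), adjusted p = 0.000236). Groups were well apart in both. Avil, the actin-binding protein advillin, fell from 16.9 and 9.72 CPM to 2.53 and 2.59 CPM (log2 change -2.40 ± 0.27 (SE), adjusted p = 0.000234). Mamdc2, a proteoglycan, went from 17.8 and 7.81 CPM to 4.19 and 2.93 CPM (log2 change -1.88 ± 0.34 (SE), adjusted p = 0.00574). Spp1, osteopontin, went from 16.7 and 9.97 CPM to 5.14 and 5.85 CPM (log2 change -1.31 ± 0.22 (SE), adjusted p = 0.00367). In these genes and in Cox6a2, a cytochrome oxidase subunit, from 16.1 and 9.97 CPM to 4.19 and 5.52 CPM (log2 change -1.46 ± 0.23 (SE), adjusted p = 0.00214), day 0 replicate 1 was well above day 0 replicate 2. Klf11, a transcriptional repressor, fell from 12.9 and 11.4 CPM to 5.38 and 3.93 CPM (log2 change -1.39 ± 0.19 (SE), adjusted p = 0.00105). S100a6, a calcium-binding protein, went from 12.6 and 9.64 CPM to 3.79 and 4.85 CPM (log2 change -1.38 ± 0.19 (SE), adjusted p = 0.000871). Cd200r4, a receptor of the CD200 family, went from 29.9 and 22.4 CPM to 9.80 and 9.78 CPM (log2 change -1.43 ± 0.15 (SE), adjusted p = 0.000133). Each gene of this paragraph was lower in both vehicle libraries, which was a condition for naming it among the largest falls.

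Cytosolic ribosomal protein genes lay below 0 as a set without a call. Of 62 tested, edgeR called 0 and DESeq2 called 0, 11 were lower and 0 higher at an unadjusted p under 0.05, and all 62 had a log2 change below 0 (median -0.21). They were also higher in day 0 replicate 1 than in replicate 2 by a median log2 of 0.35. Without day 0 replicate 2, 54 were called lower, without vehicle replicate 2, 1, and without any other library, 0. Oxidative phosphorylation subunits counted 0 of 37 called by edgeR or DESeq2, 12 lower and 0 higher at an unadjusted p under 0.05, and a median of -0.16. Without day 0 replicate 2, 18 were called lower, and without vehicle replicate 2, 5. With length removed, 0 ribosomal protein genes and 1 oxidative phosphorylation gene were called lower.

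Other metabolic lists showed few calls, and the 1 lower call of cholesterol synthesis (4.17%) was near the 3.99% of all genes. Glycolysis had 2 of 19 lower, Pkm2 (log2 change -0.35 ± 0.08 (SE), adjusted p = 0.0172) and Gapdh (log2 change -0.30 ± 0.08 (SE), adjusted p = 0.0419), against 3.99% of all genes. Pkm2 lost its call without drug replicate 1 (0.0731), drug replicate 2 (0.0635), vehicle replicate 1 (0.141) or vehicle replicate 2 (0.0615), and Gapdh without drug replicate 1 (0.12), drug replicate 2 (0.11), day 0 replicate 1 (0.213), vehicle replicate 1 (0.212) or vehicle replicate 2 (0.1). Hypoxia-responsive genes had 3 of 17 lower (17.6% against 3.99% of all genes, median -0.10). Ndrg1, a growth-linked cytoplasmic protein, fell from 55.5 and 48.2 CPM to 33.5 and 28.9 CPM (log2 change -0.74 ± 0.10 (SE), adjusted p = 0.00113). Ero1l, the oxidase that forms disulfides in the endoplasmic reticulum, went from 670.3 and 630.0 CPM to 479 and 448 CPM (log2 change -0.49 ± 0.08 (SE), adjusted p = 0.002). Vegfa, the vascular growth factor, also fell (log2 change -0.41 ± 0.09 (SE), adjusted p = 0.0154). It lost its call without day 0 replicate 1 (0.0597) or vehicle replicate 2 (0.0699). Fatty acid synthesis, the pathway of the cerulenin target, had 0 of 17 called by edgeR or DESeq2 (2 lower at an unadjusted p under 0.05, median -0.05, 1 called higher without day 0 replicate 2), and cholesterol synthesis 1 of 24, Insig1, a brake on that pathway, from 162 and 156 CPM to 109.5 and 124 CPM (log2 change -0.44 ± 0.08 (SE), adjusted p = 0.00383), with 3 lower without day 0 replicate 2. Among sterol efflux genes, Abca1, which exports cholesterol, fell from 20.6 and 19.2 CPM to 12.2 and 9.45 CPM (log2 change -0.88 ± 0.13 (SE), adjusted p = 0.00178). Mylip, which targets the LDL receptor for degradation, went from 16.4 and 14.3 CPM to 7.19 and 7.36 CPM (log2 change -1.08 ± 0.14 (SE), adjusted p = 0.000625), while Abcg1 rose (log2 change 0.38 ± 0.08 (SE), adjusted p = 0.0156). The call ended without vehicle replicate 1 (0.1).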

How the data were processed

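Poly(A) RNA of 6 libraries was sequenced, and the authors deposited raw gene counts in 1 table with exon lengths; per the labels the table came from featureCounts-style counting, and the submitters' processing notes name STAR 2.7.0f, deepTools 3.0.2 and mm10. Strand and multi-mapping settings are not stated. Counts of 11305666 to 16948697 per library set the precision, and 3 counts were taken as the floor. Of 23337 genes, 8069 had no counts and 11283 passed filterByExpr. All 3 groups were fitted together (3 residual degrees of freedom) with edgeR 4.0.16 quasi-likelihood F tests and TMM scaling in R 4.3.3, p-values adjusted by the Benjamini-Hochberg method across the 11283 genes, threshold 0.05; SE is the absolute log2 change over the root of F. DESeq2 1.42.0 was an alternative among 16 planned and 2 added settings. The fit was tested on simulated data. Members and lists were chosen with earlier results of these data known, and 5 lists were added after values were seen. Named genes were the 12 largest rises and falls of at least 10 CPM in the higher group with groups that did not overlap, up to 4 called members of each list (smallest p, largest change) and any called against its majority, and key genes whatever their values; further members were named after their values were seen. Promoters were searched on both strands for words of ATF4, E-box factors, NF-Y, E2F and the hypoxia element.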

Additional observations from a re-analysis of the deposited data

How the results depend on the processing

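Of the 873 calls, 0 changed sign under any of the 18 alternatives, of which the length offset and the crossed pairing were chosen after seeing the data. Called genes were 1957 with library totals (1741 higher, 216 lower), 491 with DESeq2 (255, 236), 1664 with no filter (821, 843), 527 with only the 2 groups (269, 258), 56 at a minimum of 1.5-fold (23, 33) and 1353 with a length offset (693 higher). With each library left out in turn they ranged from 351 to 2012 (higher 155 to 851, lower 196 to 1161). A fit with the replicate number as a block called 483 (222 higher, 261 lower), 100 list members and 9 ATF4 genes. Same-numbered deviations correlated at -0.199 for vehicle and day 0, 0.0807 for drug and vehicle and -0.0604 for drug and day 0. With 2 replicates per group, whose differences also followed gene length, these values cannot decide whether same-numbered samples were paired. With the day 0 numbers crossed, the block called 2380 genes (1097 higher, 1283 lower), 331 list members, 10 immediate early, 11 synthetase, 35 ribosomal protein and 16 oxidative phosphorylation genes. Over all lists, 151 members were called, 247 with no filter, 16 at 1.5-fold and 81 to 302 with a library left out. At 1.5-fold, 3 listed histones, 7 of all histones, 3 ATF4, 1 immediate early and 0 synthetase genes passed. Library totals gave 8 ATF4 and 3 synthetase genes. No filter gave 18 ribosomal protein and 10 oxidative phosphorylation genes, and the length offset 1 of the latter. Left-out libraries gave 12 to 23 listed histones, 24 to 44 of all histones, 6 to 16 ATF4, 4 to 8 immediate early, 3 to 9 synthetase, 0 to 54 ribosomal protein and 0 to 18 oxidative phosphorylation genes. Drug against vehicle called 3601, 714 at 1.5-fold, 5498 with the length offset and 1833 to 4191 with a library left out. Some genes that were not called changed sign (log2). With library totals, Hoxa9 was 0.0842, Cd34 0.0642, Cdkn1a 0.0863, Irf8 0.0265 and Esr1 0.031. With the length offset, Hoxa9 was 0.0153 and Cdkn1a 0.0406. With a library left out the ranges were Hoxa9 -0.0699 to 0.0062, Cdkn1a -0.1198 to 0.0615, Gfi1 -0.0526 to 0.1166, Irf8 -0.2635 to 0.0537, Itgam -0.1332 to 0.2242 and Esr1 -0.1946 to 0.0203. The cause of these changes was not tested, beyond fewer samples or a stricter threshold. Depth limits genes near 3 counts.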

Other observations

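Some genes of mast cells, basophils and eosinophils were lower at vehicle day 3. In the marker lists, 1 of 5 tested mast cell and basophil genes was called lower, Cpa3 (median -0.11), and 0 of 4 eosinophil genes. In a list widened after values were seen, 16 of 26 were called lower and 0 higher; its members were chosen with those values known, so the count describes the choice and supports nothing. Cpa3, the mast cell carboxypeptidase, was at 1057 and 872 CPM at day 0 and 469.5 and 452 CPM at vehicle day 3 (log2 change -1.07 ± 0.10 (SE), adjusted p = 4.76e-05). The drug libraries held 1189 and 1105 CPM. Il1rl1, the interleukin 33 receptor, was at 3.95 and 3.82 CPM at day 0 and 1.26 and 1.09 CPM at vehicle day 3 (log2 change -1.72 ± 0.27 (SE), adjusted p = 0.00226). Rab38, a vesicle GTPase, was at 68.6 and 61.3 CPM at day 0 and 34.2 and 33.0 CPM at vehicle day 3 (log2 change -0.95 ± 0.08 (SE), adjusted p = 3.23e-05). Both were lower in each vehicle library. Rgs18, a regulator of G protein signalling, and Cd200r1 had log2 changes of -0.58 and -0.61. The basophil protease Mcpt8 (log2 change -0.27 ± 0.10 (SE), adjusted p = 0.131), histidine decarboxylase Hdc (log2 change -0.11 ± 0.12 (SE), adjusted p = 0.584) and the progenitor and mast cell factor Gata2 (log2 change -0.08 ± 0.07 (SE), adjusted p = 0.479) did not pass. The 13 mast cell and basophil markers summed to 1166 and 981 CPM at day 0 and 568 and 553 CPM at vehicle day 3, with Mcpt1, Mcpt2, Tpsb2, Tpsab1 and Fcer1a at 0 counts in these 4 libraries. Without Cpa3 the other markers summed to 109.5 and 109.9 CPM at day 0 and 98.9 and 102 CPM at vehicle day 3. The count of 16 was 10 without day 0 replicate 1 and 11 without vehicle replicate 1.

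Genes linked to FOXO factors, also listed after values were seen, had 11 of 24 lower and 1 higher, a count that the choice of members shaped. Pik3ip1, an inhibitor of phosphoinositide 3-kinase, was at 40.9 and 32.2 CPM at day 0 and 17.2 and 21.8 CPM at vehicle day 3 (log2 change -0.92 ± 0.13 (SE), adjusted p = 0.00132). Txnip, which binds thioredoxin, was at 128 and 97.0 CPM at day 0 and 69.1 and 69.8 CPM at vehicle day 3 (log2 change -0.70 ± 0.10 (SE), adjusted p = 0.00166). Both were lower in each vehicle library. The lower count was 6 without vehicle replicate 1, and the 1 rise, Insr, lost its call without drug replicate 1 (0.105), drug replicate 2 (0.103), day 0 replicate 1 (0.254) or vehicle replicate 1 (0.291). Of 20 genes of triglyceride and sphingomyelin synthesis, also listed after values were seen, 4 were higher and 2 lower (median 0.06). The choice of members shaped these counts too. Mogat2, which makes diacylglycerol, was near its floor at day 0 and rose, from 0.359 and 0.166 CPM to 2.13 and 1.84 CPM (edgeR adjusted p = 0.00236). Lower calls were 0 without day 0 replicate 1 or either vehicle library, 1 without either drug library, and 3 without day 0 replicate 2. Zinc finger genes with a Zfp symbol had 25 of 288 higher (8.68%) and 6 lower (2.08%), with a median of 0.13 and a median length of 3491 bp, above that of all genes (2830 bp).

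Kcnq1ot1, a nuclear RNA antisense to Kcnq1 whose reads cannot be told from those of its partner without strand, was at 373 and 536 CPM at day 0 and 763 and 628 CPM at vehicle day 3 (log2 change 0.62 ± 0.14 (SE), adjusted p = 0.0181). It was not called without day 0 replicate 1 (0.0697) or vehicle replicate 1 (0.144). Snhg12, a host of small nucleolar RNAs, was at 15.5 and 12.7 CPM at day 0 and 7.19 and 8.03 CPM at vehicle day 3 (log2 change -0.90 ± 0.15 (SE), adjusted p = 0.00268). Its list of 13 snoRNA hosts and nuclear RNAs had 1 higher and 5 lower (median -0.56), and the lower count was 1 without vehicle replicate 1, 2 without day 0 replicate 1, 3 without drug replicate 1, 10 without day 0 replicate 2 and 8 without vehicle replicate 2. Gsr, glutathione reductase, rose from 168 and 174 CPM to 212 and 242 CPM (log2 change 0.41 ± 0.08 (SE), adjusted p = 0.00872), and Sqstm1, an autophagy receptor, fell from 149.5 and 123 CPM to 89.6 and 90.0 CPM (log2 change -0.60 ± 0.09 (SE), adjusted p = 0.00132). Trp53inp1, a p53 target, fell from 21.5 and 18.2 CPM to 12.02 and 9.87 CPM (log2 change -0.86 ± 0.15 (SE), adjusted p = 0.00405), and Rbl1, a relative of the retinoblastoma protein, rose from 96.5 and 100.5 CPM to 127 and 124 CPM (log2 change 0.35 ± 0.07 (SE), adjusted p = 0.00708). In each gene the groups did not overlap.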
